A study of Mus musculus with 6 samples.

Results

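The respiratory chain was followed in the uterine epithelium of pregnant mice through 73 of the 18193 genes measured (0.401%): those whose symbol begins with Nduf or Uqcr, equals Sdha, Sdhb, Sdhc or Sdhd, or begins with Cox4, Cox5, Cox6, Cox7 or Cox8. Each gene was represented by its brightest probe set, a group of short probes for 1 transcript, out of 148 probe sets that carried 1 gene symbol. The members comprised 34 genes of complex I, 8 assembly factors of complex I (the Ndufaf genes), 4 genes of complex II, 8 of complex III and 11 of complex IV. The remaining 8 were isoforms or relatives that are best known from particular tissues or conditions (Cox4i2, Cox6a2, Cox6b2, Cox7a1, Cox7b2, Cox8b, Cox8c and Ndufa4l2).

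Epithelium was released from uteri with pancreatin and dispase, and its RNA was hybridised to 6 Affymetrix arrays, a pair for each group. One group was mice heterozygous for a GFP allele of Sox17 (Sox17GFP/+) on day 4 of pregnancy (arrays 253 and 281). The others were wild-type (WT) mice on day 4 (277 and 284) and WT mice on day 1, the day of the vaginal plug (302 and 303). Every cell of a heterozygous mouse carries the allele, so the uterine epithelium is not the only tissue it can act in. Strain and age are not given in the sources used here, and nothing states that the arrays of a group came from separate animals, so p-values reflect only the spread of these arrays.

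The respiratory chain passes electrons from NADH and succinate to oxygen and pumps protons across the inner mitochondrial membrane, and ATP synthase uses the proton gradient. Complex I accepts electrons from NADH and complex II from succinate; both reduce coenzyme Q, complex III hands the electrons to cytochrome c, and complex IV, cytochrome c oxidase, gives them to oxygen. A few core subunits of each complex carry out the reaction, some of them encoded by mitochondrial DNA, while the many accessory subunits stabilise the complexes and assembly factors help to build them. On day 1 of mouse pregnancy the uterine epithelium is under estrogen and divides, and by day 4 it is under progesterone and prepares for implantation.

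Probe set signals are given on the authors' linear scale and changes as log2(signal + 1), with limma's standard error (SE, n = 2 arrays per group). A change was called at a Benjamini-Hochberg adjusted p under 0.05 over all 18193 genes, by limma at its default settings; limma with an intensity trend, in which the expected spread of a gene depends on its signal, is given beside it. All arrays had a trimmed mean signal of 500, but the median signal was 138 on WT day 4 array 277 and 66.2 to 78.0 elsewhere, so dim genes tended to be higher on array 277. Sox17 itself had signals of 30189 and 28810.3 in Sox17 heterozygous day 4 mice, 34794 and 35060.4 in WT day 4 mice and 7738 and 8671 in WT day 1 mice, and its heterozygous-minus-WT change on day 4 was -0.24 ± 0.19 (adjusted p = 0.586). The signals of 8 of 9 epithelial markers measured summed to 131338 to 151873 per array, but single markers moved in opposite directions. From WT day 1 to WT day 4, Muc1 went from 14415 and 16108 to 728 and 1089. Cldn3 went from 11196 and 11945 to 33662 and 27190. Sox17 heterozygous day 4 mice had 2085 and 1988 for Muc1 and 23557 and 24012 for Cldn3. The signals of 8 stromal markers summed to 449 and 846 in Sox17 heterozygous day 4 mice, 1594 and 2775 in WT day 4 mice and 3478 and 8902 in WT day 1 mice, and their part in the results below was not tested. In bulk RNA, fewer cells of a type and less RNA per cell cannot be told apart.

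Respiratory chain genes were mostly bright and steady. The signal reached at least 1000 on every array for 54 of the 73 members, against 17.3% of all genes, and at least 50 for 68 members, against 54.7% of all genes. The highest signal exceeded the lowest by less than 1.5 times in 35 members (47.9%, against 10.5% of all genes and 25.2% of the 6065 genes with the highest mean signal, below called the brightest) and by less than 2 times in 58 (79.5%, against 27.1% and 57.8%). Sdhd, which anchors complex II in the membrane, was among the steadiest, with signals of 3464 and 3747 in Sox17 heterozygous day 4 mice, 3397 and 3667 in WT day 4 mice and 3617 and 3343 in WT day 1 mice. Cox6b1, a complex IV subunit that faces the intermembrane space, had 13244 and 13521 in Sox17 heterozygous day 4 mice, 11988 and 13388 in WT day 4 mice and 13144 and 13678 in WT day 1 mice. Within these 2 genes the highest and lowest arrays differed by 1.12-fold and 1.14-fold. Replicate arrays also lay close together: the median absolute log2 difference within a pair was 0.0953 over the members in Sox17 heterozygous mice (0.277 over all genes and 0.12 over the 6065 brightest), 0.149 in WT day 4 mice (0.585 and 0.253) and 0.138 in WT day 1 mice (0.322 and 0.17).

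**Figure D1:**
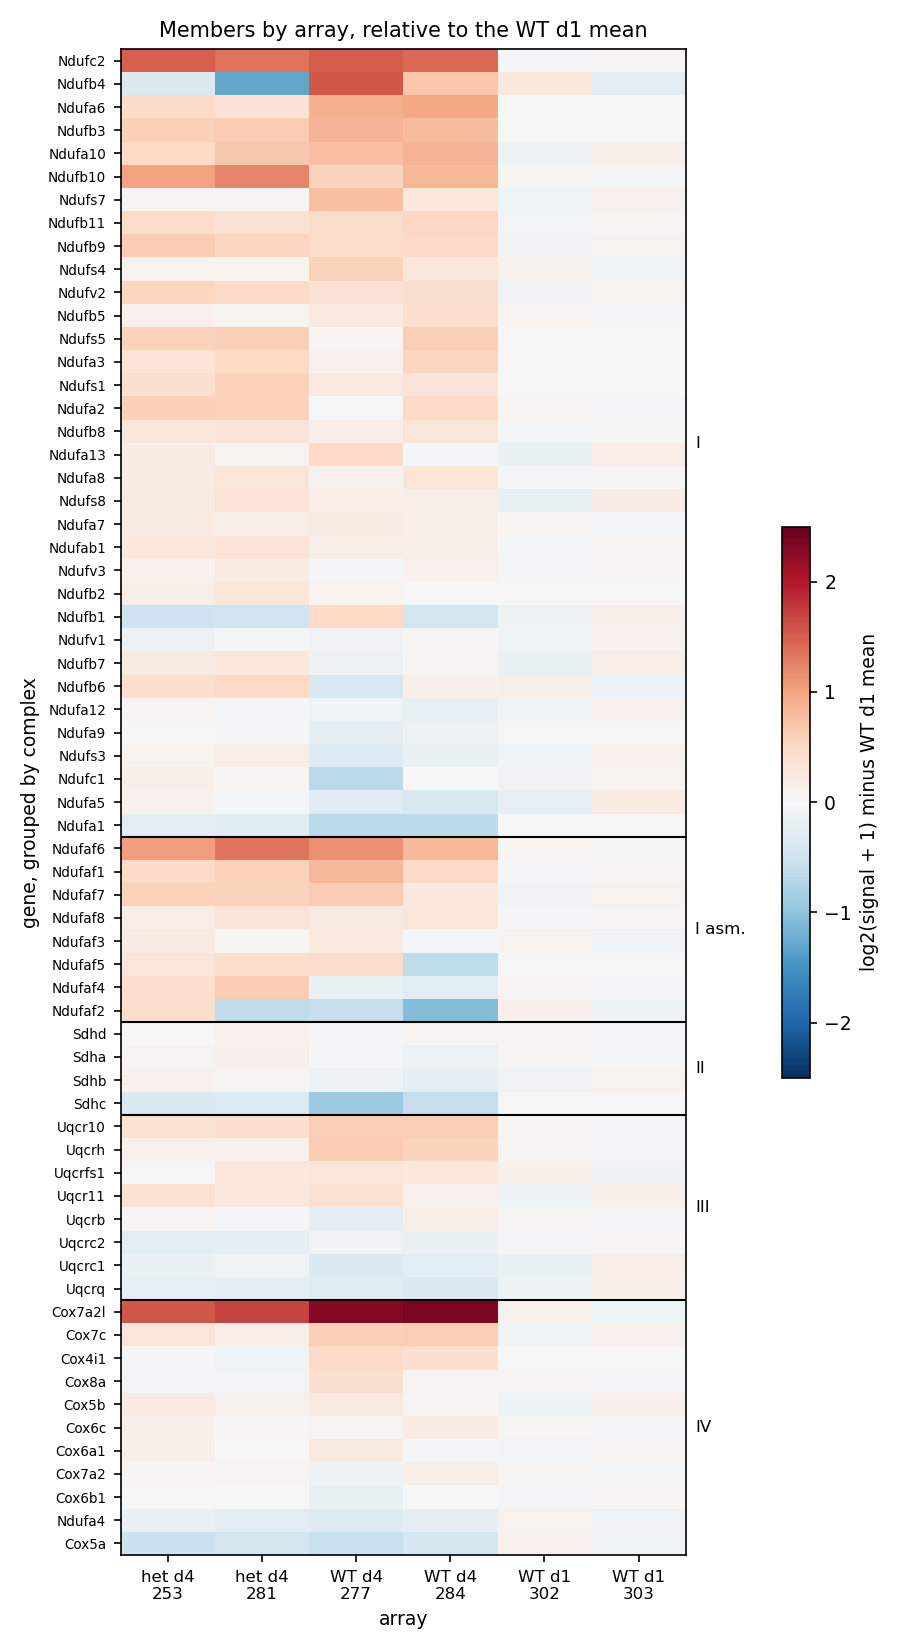
Members of complexes I to IV and the complex I assembly factors (rows, 65 genes, the 8 restricted isoforms left out) on each of the 6 arrays (columns), coloured by log2(signal + 1) minus the mean of the 2 WT day 1 arrays. Cox7a2l and Ndufc2 are the strongly coloured rows on all 4 day 4 arrays, and most other rows stay pale.

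From day 1 to day 4 in WT mice, 3 members rose and 1 fell. Cox7a2l rose 4.97-fold by mean signal, Ndufc2 2.76-fold and Ndufa6 1.90-fold, while the dim Ndufa4l2 fell. These 4 are 5.48% of the 73 members; among all genes 13.3% were called (7.58% higher and 5.73% lower), and 20.1% among the 6065 brightest genes. The members' share was thus below the background of all genes and of bright genes.

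Cox7a2l, a relative of the COX7A subunits whose protein (SCAF1) joins complexes III and IV in respiratory supercomplexes, had signals of 14436 and 15926 in Sox17 heterozygous day 4 mice, 23801 and 25062 in WT day 4 mice and 5277 and 4558 in WT day 1 mice. The 3 groups did not overlap, with WT day 4 highest and WT day 1 lowest. The day 4 minus day 1 change in WT mice was 2.32 ± 0.20 (SE), with an adjusted p of 0.00911 and 2.19e-06 with an intensity trend. The brightest Cox7a2l probe set is of a kind (x_at) whose probes can also match other sequences. Its other 2 probe sets gave changes of 2.27 and 2.26, close to that of the first. The call was kept after quantile normalization, after centring every array on its median and with the 4 WT arrays alone, but not without WT day 1 array 302 (adjusted p = 0.0766) or 303 (0.0714).

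Ndufc2, an accessory subunit of the membrane arm of complex I, had signals of 26562 and 24241 in Sox17 heterozygous day 4 mice, 26856 and 25422 in WT day 4 mice and 9338 and 9597 in WT day 1 mice. All 4 day 4 arrays lay above both day 1 arrays. The change in WT mice was 1.46 ± 0.19 (SE; adjusted p = 0.0179, and 7.35e-05 with an intensity trend). Its other 3 probe sets had changes of 2.08, 2.15 and 1.68. With the default settings the call was lost after centring (adjusted p = 0.104), with the 4 WT arrays alone (0.0754), and without array 302, 303, 253 or 281 (adjusted p from 0.118 without 302 to 0.0754 without 281).

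Ndufa6, which carries a LYR motif and binds the mitochondrial acyl carrier protein NDUFAB1 in complex I, had signals of 7392 and 6804 in Sox17 heterozygous day 4 mice, 9783 and 10268 in WT day 4 mice and 5333 and 5221 in WT day 1 mice. Here the Sox17 heterozygous arrays lay between the WT groups, and no groups overlapped. The change in WT mice was 0.93 ± 0.19 (SE; adjusted p = 0.0464, and 0.000686 with an intensity trend). At the default settings it stood near the threshold: the call was lost after centring, when the probe sets of every gene were averaged (adjusted p = 0.066, although Ndufa6 itself has 1 probe set), with the 4 WT arrays alone and whenever any 1 array was left out (adjusted p from 0.0724 without array 284 to 0.196 without 302).

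**Figure D2:**
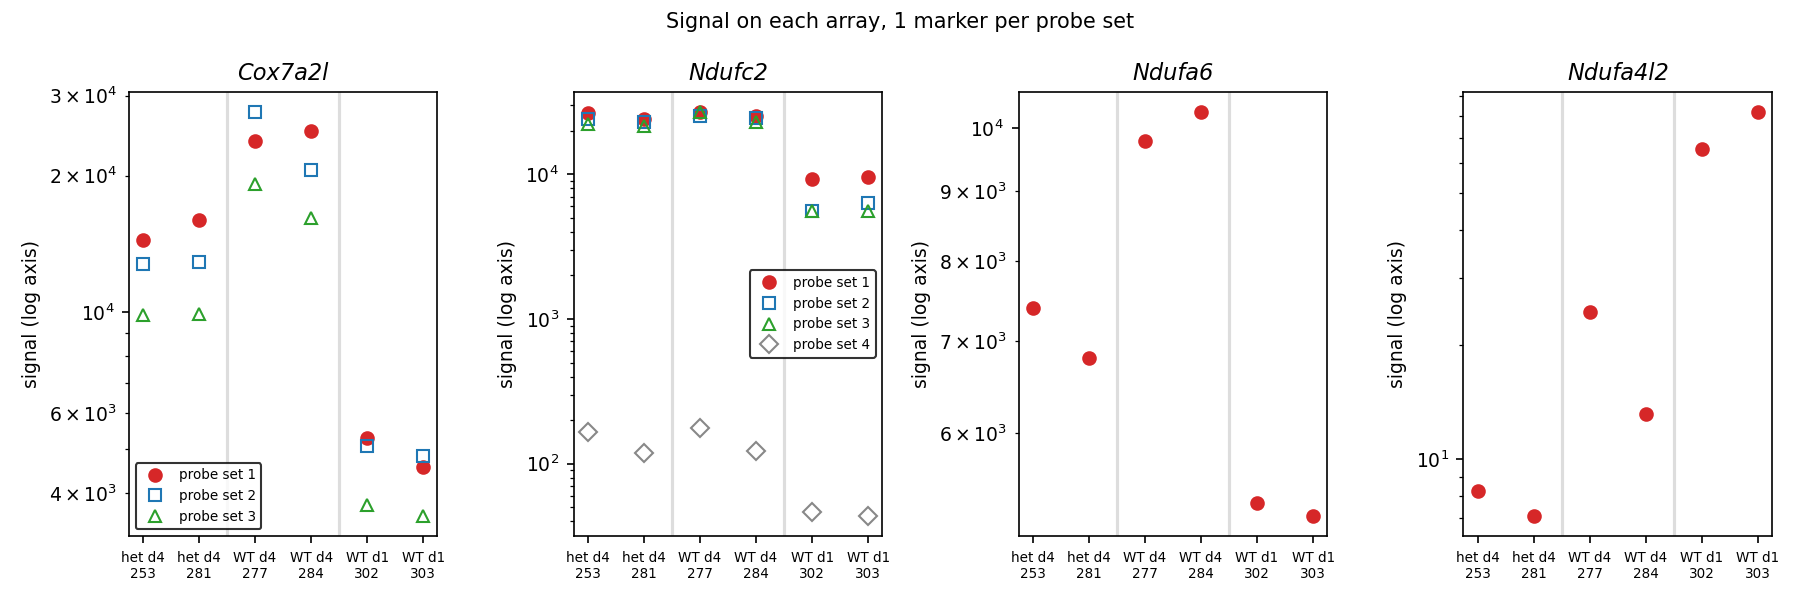
Signal on each array (log axis, scaled separately in each panel) of the 4 members called in WT day 4 minus WT day 1, with Sox17 heterozygous day 4 arrays left of WT day 4 and WT day 1. Filled circles are the brightest probe set and open markers the other probe sets of the gene. Cox7a2l, Ndufc2 and Ndufa6 are lowest on the 2 WT day 1 arrays, and Ndufa4l2 is highest there.

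The promoters of the 3 members that rose are shown because these genes were called in the same direction between the days. Each sequence runs from 250 bases before to 50 bases after the annotated start of the gene in RefSeq's mouse table (GRCm38.p6), on the gene's own strand: chr17:83514284-83514583 (minus strand) for Cox7a2l, chr7:97399753-97400052 (plus strand) for Ndufc2 and chr15:82354242-82354541 (minus strand) for Ndufa6. Capitals mark matches, on either strand, to 4 motifs: GCATGCGC of NRF1, an activator of respiratory chain genes, AAGGTCA of the estrogen-related receptors, the steroid receptor half-site AGAACA, and ACAAT, the core of SOX sites.
Cox7a2l: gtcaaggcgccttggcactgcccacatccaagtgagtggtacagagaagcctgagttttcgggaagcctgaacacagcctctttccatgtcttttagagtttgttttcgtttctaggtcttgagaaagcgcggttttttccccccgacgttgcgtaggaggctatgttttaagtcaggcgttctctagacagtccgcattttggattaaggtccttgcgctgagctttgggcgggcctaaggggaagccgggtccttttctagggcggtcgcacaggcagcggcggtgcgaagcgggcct
Ndufc2: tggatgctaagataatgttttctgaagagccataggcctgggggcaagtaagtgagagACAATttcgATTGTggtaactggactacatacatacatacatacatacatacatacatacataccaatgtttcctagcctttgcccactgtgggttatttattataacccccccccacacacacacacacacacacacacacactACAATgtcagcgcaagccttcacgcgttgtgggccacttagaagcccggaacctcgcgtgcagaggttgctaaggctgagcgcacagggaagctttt
Ndufa6: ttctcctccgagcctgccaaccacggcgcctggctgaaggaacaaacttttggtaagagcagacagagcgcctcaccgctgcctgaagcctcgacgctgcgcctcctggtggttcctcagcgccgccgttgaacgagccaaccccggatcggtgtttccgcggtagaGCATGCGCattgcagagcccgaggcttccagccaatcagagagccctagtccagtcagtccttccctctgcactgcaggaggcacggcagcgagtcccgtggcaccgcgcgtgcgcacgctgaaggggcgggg
The Cox7a2l window held none of the 4 motifs, the Ndufc2 window held ACAAT or its reverse complement at 3 positions (59, 68 and 204, counted from the first base of the window), and the Ndufa6 window held the NRF1 motif at position 168. No matches overlapped in these windows. RefSeq's table had windows for 59 of the 73 members, 61 in all. The NRF1 motif lay in 13.1% of those 61 windows, against 2.71% of all 32851 windows of the same length, in Cox6a1, Ndufa6, Ndufa8, Ndufaf4, Ndufaf5, Sdhb, Uqcr11 and Uqcrc1. The estrogen-related receptor motif lay in 6.56%, against 4.72% of all windows, AGAACA in 14.8%, against 19.0%, and ACAAT in 26.2%, against 31.0%. A match describes letters in the window and does not show that a factor binds there.

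**Figure D3:**
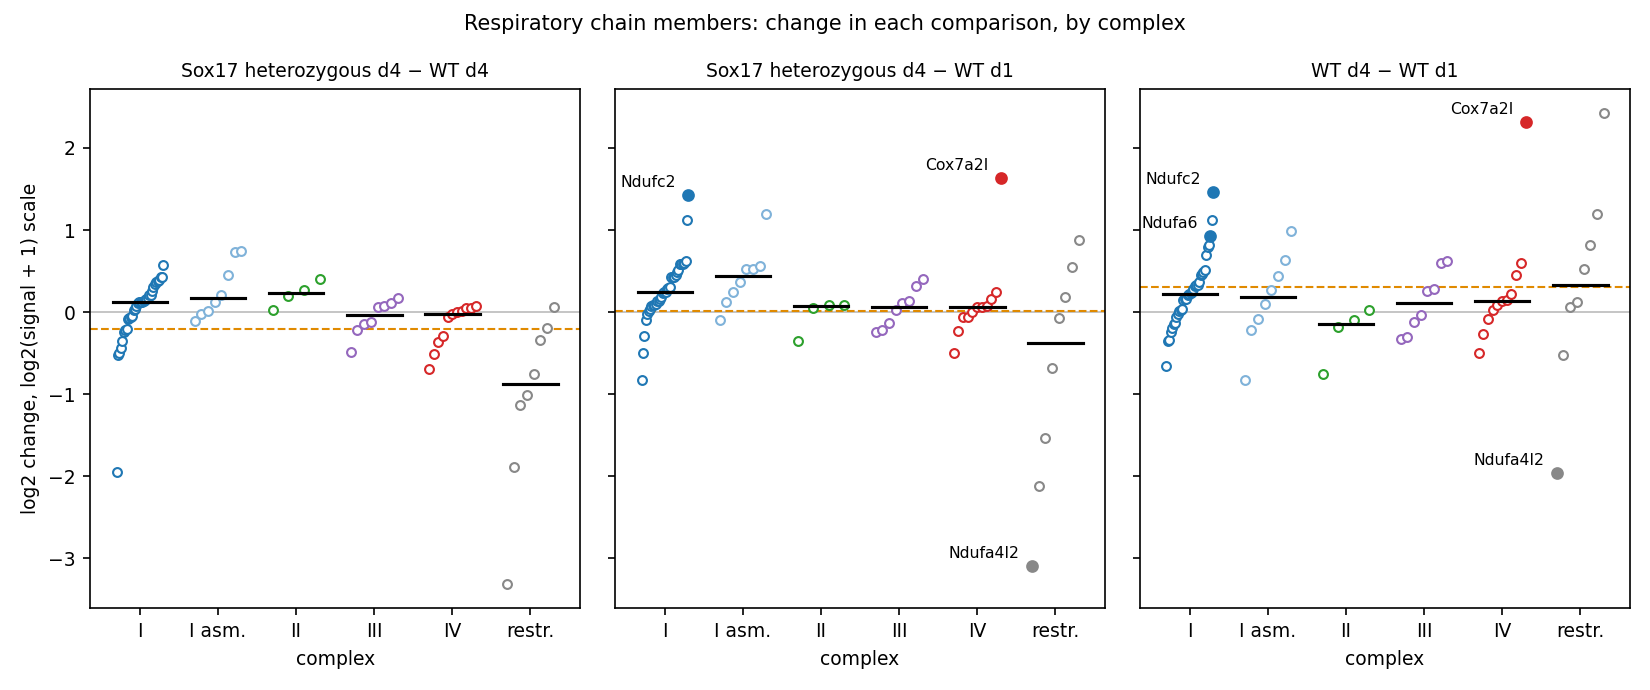
Log2 change of each of the 73 members (points) in the 3 comparisons (panels), by complex, with the 8 assembly factors of complex I (I asm.) and the 8 restricted isoforms (restr.) set apart. Filled points passed an adjusted p under 0.05 with limma's default settings, black bars are medians of each group of members, and the dashed line is the median of all genes. Few points are filled, and in complexes I to IV most lie within 1 log2 unit of 0.

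Beyond these 4, most members differed little between the days in WT mice. Some uncalled members changed about as much as Ndufa6 (0.93), such as Ndufaf6 (0.98), Ndufb3 (0.82) and Ndufaf2 (-0.83). The 95% confidence interval of the change lay within 1 log2 unit of 0 on both sides for 44 of the 73 members. The median change over the 73 members was 0.15, against 0.30 over all genes and 0.093 over the 6065 brightest. After quantile normalization it was 0.17, against 0.068 over all genes, and it was -0.044 after each array was centred on its median, where that of all genes was 0.10. So the direction of the members' median, and whether it lay above or below that of all genes, depended on the scaling. Centring shifts all genes of an array alike. The median log2 level of all genes was 7.89 on array 277 and 7.24 on array 284, while that of the members was 11.78 and 11.89. The part of this difference in the centred values was not tested. The median absolute change was 0.287, against 0.715 over all genes and 0.50 over the 6065 brightest, and 69.9% of members had an absolute change under 0.5 log2 units, against 37.5% and 49.98%. With an intensity trend 11 members were called higher and 3 lower, 19.2% of the 73, against 24.8% of all genes (14% higher and 10.8% lower) and 46.1% of the 6065 brightest. The arrays of the 2 groups did not overlap for 33 members higher and 15 lower on day 4, 65.8% of the members, against 56.6% of all genes (35.4% higher and 21.3% lower).

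**Figure D4:**
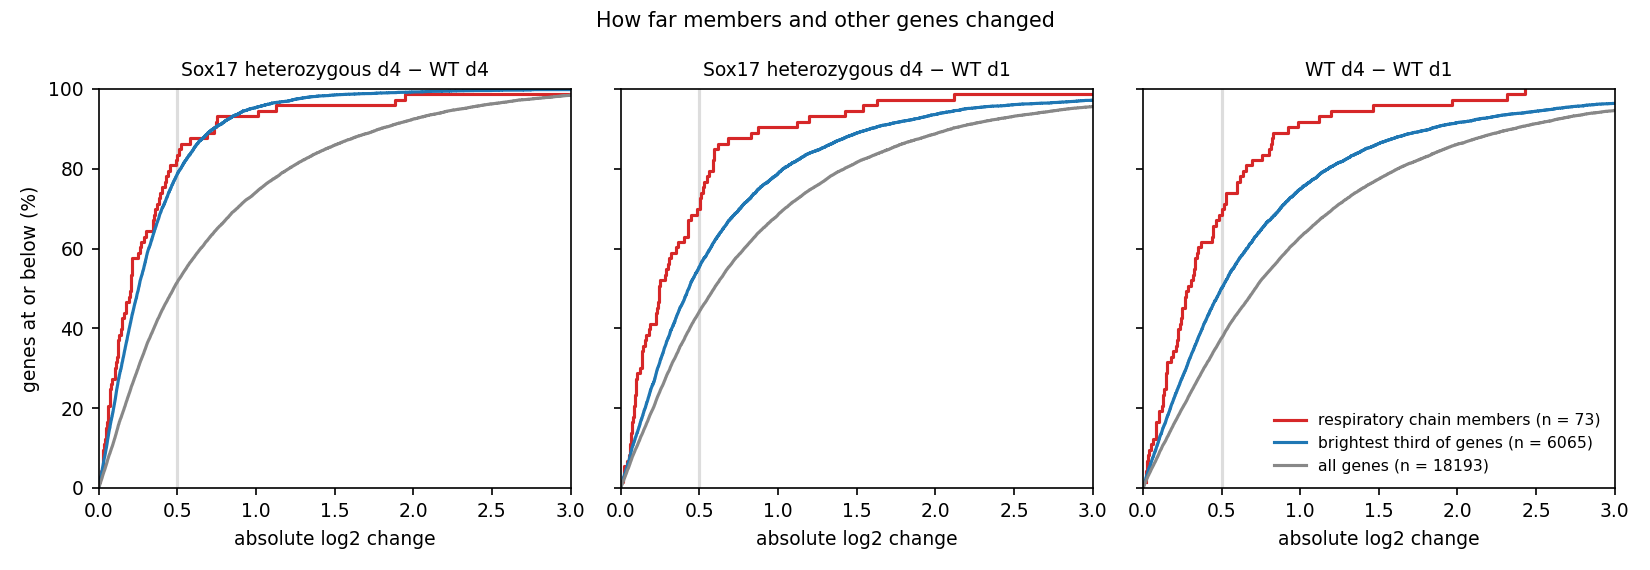
Cumulative share (percent) of genes at or below each absolute log2 change in the 3 comparisons, for the 73 members, the 6065 brightest genes (by mean signal) and all 18193 genes; the grey vertical line marks 0.5. In WT day 4 minus WT day 1 the members' curve runs above both others at 0.5, at 69.9% against 49.98% and 37.5%.

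Between the days in WT mice, changes of the 9 core subunits of complexes I and III that were measured ran from -0.31 to 0.52. Their median was 0.15 (-0.044 after centring and 0.029 in the mean of probe sets). None was called by either fit, against 13.3% of all genes at default settings and 24.8% with an intensity trend. The arrays of the 2 groups did not overlap for 4 higher and 3 lower, 77.8% of the 9, against 56.6% of all genes. Ndufs1, the largest of the iron-sulphur subunits, had signals of 2390.1 and 2688 in Sox17 heterozygous day 4 mice, 2117 and 2274 in WT day 4 mice and 1798 and 1827 in WT day 1 mice. Ndufv1, which binds NADH, had 2114 and 2292 in Sox17 heterozygous day 4 mice, 2217 and 2409.8 in WT day 4 mice and 2172 and 2545 in WT day 1 mice. Changes of Ndufs3, Ndufs7, Ndufs8 and Ndufv2 in WT mice were -0.25, 0.52, 0.15 and 0.37, with adjusted p from 0.261 for Ndufs7 to 0.689 for Ndufs8.

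In complex I, 7 of 34 members rose and 1 fell with an intensity trend (23.5%, against 24.8% of all genes and 46.1% of the 6065 brightest). Those that rose were the accessory subunits Ndufa6, Ndufa10, Ndufb3, Ndufb9, Ndufb10, Ndufb11 and Ndufc2. The Ndufb subunits and Ndufc2 belong to the membrane arm. Ndufb3 had signals of 3317 and 3393 in Sox17 heterozygous day 4 mice, 3939 and 3792 in WT day 4 mice and 2172 and 2197 in WT day 1 mice, so that all day 4 arrays lay above both day 1 arrays, with a WT change of 0.82 ± 0.18 (SE; adjusted p = 0.0569, and 0.00107 with an intensity trend). Ndufb10 had 3253 and 3763 in Sox17 heterozygous day 4 mice, 2373 and 2867 in WT day 4 mice and 1643 and 1576 in WT day 1 mice, highest in Sox17 heterozygous mice. Ndufa1, an accessory subunit of the membrane-bound part, was the only complex I member called lower with an intensity trend, at 11203 and 10888 in Sox17 heterozygous day 4 mice, 8494 and 8625 in WT day 4 mice and 13353 and 13636 in WT day 1 mice; its change in WT mice was -0.66 ± 0.18 (SE; adjusted p = 0.0917, and 0.00721 with an intensity trend). Over the 34 complex I members the median change was 0.23, with 25 of 34 above 0, and 0.027 with 19 of 34 above 0 after centring.

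Of the 8 complex I assembly factors, none was called with default settings, against 13.3% of all genes. With an intensity trend 1 of 8 rose, Ndufaf1 (12.5%, against 24.8% of all genes). Ndufaf1, which helps to build the membrane arm, had signals of 874 and 939 in Sox17 heterozygous day 4 mice, 1097 and 871 in WT day 4 mice and 619 and 636 in WT day 1 mice, with a WT change of 0.64 ± 0.21 (SE; adjusted p = 0.137, and 0.0283 with an intensity trend). Ndufaf6 had 228 and 281 in Sox17 heterozygous day 4 mice, 244 and 196 in WT day 4 mice and 113 and 107 in WT day 1 mice, lowest on the 2 day 1 arrays, and its WT change of 0.98 missed the threshold in both fits (adjusted p = 0.0683 and 0.092). Ndufaf2 had a change of -0.83 (adjusted p = 0.304) and Ndufaf7 of 0.44 (adjusted p = 0.283).

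Complex II, succinate dehydrogenase, is also an enzyme of the tricarboxylic acid cycle, and all 4 of its subunits are nuclear-encoded. In WT mice its median change was -0.14, with 1 of 4 subunits above 0; it was -0.34 with 0 of 4 after centring and -0.075 with 2 of 4 in the mean of probe sets. Sdhc, a membrane anchor, had signals of 1750.0 and 1769 in Sox17 heterozygous day 4 mice, 1191 and 1481 in WT day 4 mice and 2226 and 2273 in WT day 1 mice, lowest on the WT day 4 arrays and with no overlap between groups. Its change in WT mice was -0.76 ± 0.21 (SE; adjusted p = 0.0917, and 0.00452 with an intensity trend), and its other probe set had a change of -0.47. Sdha, the flavoprotein, had 5431 and 5660.4 in Sox17 heterozygous day 4 mice, 5002 and 4700.0 in WT day 4 mice and 5281 and 5129.9 in WT day 1 mice, and Sdhb, the iron-sulphur subunit, had 5009 and 4906 in Sox17 heterozygous day 4 mice, 4242 and 3996 in WT day 4 mice and 4379 and 4967 in WT day 1 mice. Their WT changes of -0.10 and -0.18 were not called (adjusted p = 0.754 and 0.587). The second Sdha probe set had a change of 0.31, of opposite sign to the first.

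In complex III, no member was called with default settings, against 13.3% of all genes. Uqcrh and Uqcr10 rose with an intensity trend, 2 of 8 (25%, against 24.8% of all genes and 46.1% of the 6065 brightest). Uqcrh, the hinge protein, had signals of 9922 and 10017 in Sox17 heterozygous day 4 mice, 14391 and 13634 in WT day 4 mice and 9585 and 8953 in WT day 1 mice, with a WT change of 0.60 ± 0.18 (SE; adjusted p = 0.116, and 0.0134 with an intensity trend). Uqcr10 had 1608 and 1637 in Sox17 heterozygous day 4 mice, 1890.3 and 1876 in WT day 4 mice and 1251 and 1206 in WT day 1 mice, with a WT change of 0.62 ± 0.18 (SE; adjusted p = 0.104, and 0.00927 with an intensity trend). Other probe sets of these genes had the opposite sign, at -0.28 for Uqcrh and -0.013 and -0.58 for Uqcr10, so the direction of both genes depends on the probe set. The core proteins Uqcrc1 and Uqcrc2 had changes of -0.31 and -0.13, and Uqcrfs1, the Rieske iron-sulphur protein, of 0.29, with adjusted p from 0.41 for Uqcrc1 to 0.697 for Uqcrc2. Uqcrq had a change of -0.33 (adjusted p = 0.353).

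In complex IV, Cox7a2l stood apart from the rest. The mean log2 level of the other 10 complex IV members was 13.23 and 13.18 in Sox17 heterozygous day 4 mice, 13.32 and 13.31 in WT day 4 mice and 13.23 and 13.24 in WT day 1 mice. Cox5a, a subunit of the matrix side, had signals of 12824 and 13614 in Sox17 heterozygous day 4 mice, 12756 and 13732 in WT day 4 mice and 20169 and 17369.9 in WT day 1 mice, with both day 1 arrays above all day 4 arrays. Its WT change was -0.50 ± 0.20 (SE; adjusted p = 0.188, and 0.0491 with an intensity trend), and its other 2 probe sets had changes of -1.17 and -1.49 (adjusted p = 0.0989 and 0.16 in the fit of every probe set on its own). Cox7c had a change of 0.60 (adjusted p = 0.134), and its second, dimmer probe set of -0.15. Cox4i1, Cox6a1, Cox7a2, Cox8a and Ndufa4, the commonly expressed partners of the restricted isoforms, had changes of 0.45, 0.086, 0.019, 0.22 and -0.27, with adjusted p from 0.196 for Cox4i1 to 0.964 for Cox7a2. Ndufa4, first described in complex I, is now counted with complex IV.

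**Figure D5:**
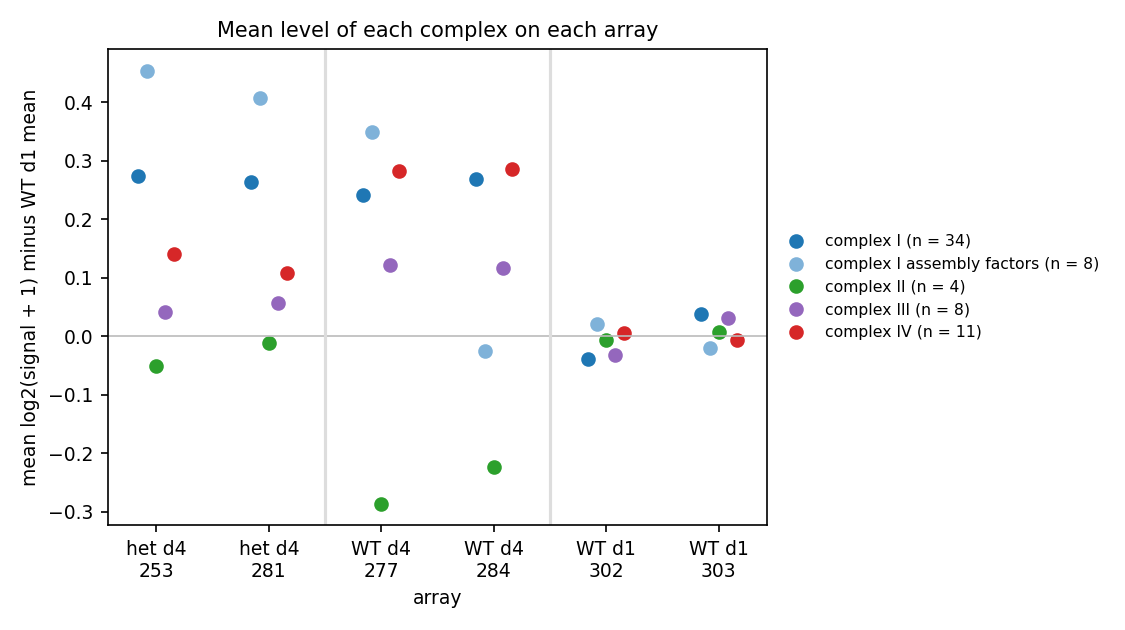
Mean log2(signal + 1) of each complex and of the complex I assembly factors on each array, minus the mean of the 2 WT day 1 arrays; each point is 1 array. Complex II is lowest on the 2 WT day 4 arrays, and complex IV, whose mean includes Cox7a2l, is highest there.

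The restricted isoforms were dim, and none reached a signal of 1000 on every array. Ndufa4l2, a relative of Ndufa4 known as a target of hypoxia signalling, had signals of 8.27 and 7.1 in Sox17 heterozygous day 4 mice, 24.3 and 13.1 in WT day 4 mice and 65.2 and 81.7 in WT day 1 mice. The groups did not overlap, with Sox17 heterozygous mice lowest and WT day 1 mice highest. The change in WT mice was -1.97 ± 0.36 (SE; adjusted p = 0.0378, and 0.184 with an intensity trend, where it was not called). These signals are too dim for the size of the change to be settled: with a pseudocount of 32 it was -1.06. With the default settings the call was also lost with the 4 WT arrays alone, without heterozygous array 253 or 281 (adjusted p = 0.107 in each) and without array 302 (0.15), 303 (0.176) or 284 (0.0502). The summed signals of 7 smooth muscle markers ran the same way, at 193 and 199 in Sox17 heterozygous day 4 mice, 439 and 358 in WT day 4 mice and 929 and 901 in WT day 1 mice, with Myh11, Cnn1 and Myl9 under 50 on every array. Acta2 was the brightest of them on every array (115 and 125, 143 and 191, 505 and 504 in the same order). Actg2, Myl9 and Cnn1 were not highest on the WT day 1 arrays. The sums of the stromal markers given above also ran this way, although Col1a1, Hand2 and Pdgfra were not highest on day 1. The part of these cell types in the Ndufa4l2 values was not tested.

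Cox4i2, the lung-enriched form of COX4, had signals of 74.5 and 113 in Sox17 heterozygous day 4 mice, 185 and 73.8 in WT day 4 mice and 107 and 60.8 in WT day 1 mice, with overlap between all groups. Cox6a2, Cox7a1 and Cox8b, known from heart and skeletal muscle, had changes of -0.53, 0.82 and 2.43 between the days in WT mice, with adjusted p of 0.625, 0.193 and 0.252. Cox8b was above 10 on array 277 alone, with signals of 4.64 and 4.27 in Sox17 heterozygous day 4 mice, 64.2 and 5.21 in WT day 4 mice and 2.49 and 2.99 in WT day 1 mice. The striated muscle markers summed to 440.2 and 387 in Sox17 heterozygous day 4 mice, 913 and 664 in WT day 4 mice and 355 and 369 in WT day 1 mice. Cox6b2, Cox7b2 and Cox8c, known from testis, had changes of 0.12, 1.20 and 0.067 (adjusted p = 0.794, 0.723 and 0.916). The 6 sperm and testis markers summed to 101 and 188 in Sox17 heterozygous day 4 mice, 259.7 and 126 in WT day 4 mice and 68.0 and 77.4 in WT day 1 mice, with Prm2 and Tnp1 under 50 on every array. Cox8c was brighter than these markers and isoforms, with signals from 193 to 451. At the signals of the dimmer genes, expression cannot be told from background here.

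Between Sox17 heterozygous and WT mice on day 4, no respiratory chain member was called by limma with default settings, and neither was any of the 18193 genes (0% called; the smallest adjusted p was 0.125). At an unadjusted p under 0.05 there were 6 members and 2406 genes. The median change of the members was 0.033, against -0.20 over all genes and 0.024 over the 6065 brightest. It was 0.046 after quantile normalization, against -0.013 over all genes, and 0.21 after centring, against -0.028. The median absolute change was 0.204, against 0.477 over all genes and 0.253 over the 6065 brightest, and 83.6% of members had an absolute change under 0.5 log2 units, against 51.6% and 78.7%. The 95% confidence interval of the change lay within 1 log2 unit of 0 on both sides for 57 of the 73 members, so for these a change of more than 2-fold lies outside the interval.

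With an intensity trend 1 of 73 members (1.37%) was called in this comparison. Of all genes 3.52% were called (1.93% higher and 1.59% lower), and of the 6065 brightest 7.39%. The member was Cox7a2l, lower in the heterozygous mice. Its signals were 14436 and 15926 in Sox17 heterozygous mice, against 23801 and 25062 in WT mice on the same day, with no overlap. The change was -0.69 ± 0.20 (SE; 95% interval -1.22 to -0.15; adjusted p = 0.301 at default settings, and 0.0453 with an intensity trend). The other 2 probe sets had changes of -0.89 and -0.83. The call with an intensity trend was lost after centring, without heterozygous array 253 or 281 and without WT day 1 array 302 or 303.

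The arrays of the 2 genotypes did not overlap for 23 members higher and 21 lower in Sox17 heterozygous mice, 60.3% of members, against 48.5% of all genes (18% higher and 30.6% lower). In complex II, Sdha, Sdhb and Sdhc were among the 23, and all 4 subunits had changes above 0, with a median of 0.23, 0.20 after quantile normalization and 0.40 after centring, while 3 of 4 lay above 0 in the mean of probe sets. The 2 dim probe sets of Sdha had changes of -0.80 and -1.36. Sdhc had a change of 0.41, Sdhb of 0.27, Sdha of 0.19 and Sdhd of 0.029, with adjusted p from 0.459 for Sdhc to 0.95 for Sdhd. None of the 4 passed the test.

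Among complex I members, Ndufb6 had signals of 4221 and 4347 in Sox17 heterozygous mice, against 2383 and 3449 in WT mice on the same day, a change of 0.58 ± 0.27 (SE; adjusted p = 0.437), and its second probe set had a change of 0.39. Ndufa6 had 7392 and 6804 in Sox17 heterozygous mice, against 9783 and 10268 in WT mice on the same day, a change of -0.50 ± 0.19 (SE; adjusted p = 0.376, and 0.0967 with an intensity trend). Ndufs7, a core iron-sulphur subunit, had a change of -0.44 and its second probe set of -0.28 (adjusted p = 0.487 for the first). The dim Ndufb4 probe set had 21.9 and 11.03 in Sox17 heterozygous mice, against 84.9 and 46.8 in WT mice on the same day, without a call (adjusted p = 0.266) and too dim to be judged. The median over complex I was 0.13, with 22 of 34 members above 0, 0.30 with 26 of 34 after centring and 0.069 with 19 of 34 in the mean of probe sets.

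Ndufaf4, an assembly factor of the early complex I intermediates, had signals of 599 and 695 in Sox17 heterozygous mice, against 402 and 369 in WT mice on the same day, with no overlap. The change was 0.74 ± 0.20 (SE; adjusted p = 0.28, and 0.104 with an intensity trend), and 0.96 for its second probe set. In complex III, Uqcrh had a change of -0.49 (adjusted p = 0.379), Uqcr10 of -0.21 and Uqcrc1 of 0.18. The second Uqcrh probe set had a change of 0.043, and the other probe sets of Uqcr10 had -0.33 and -0.31. In complex IV, Cox4i1 had 13768 and 13033 in Sox17 heterozygous mice, against 19449 and 18651 in WT mice on the same day, a change of -0.51 ± 0.18 (SE; adjusted p = 0.369), and Cox7c had a change of -0.36. The second, dimmer Cox7c probe set had a change of 0.33. The medians of complexes III and IV, -0.03 and -0.029, turned to 0.14 and 0.14 after centring, so their direction depended on the scaling. Of the restricted isoforms, 1 of 8 had a change above 0, with a median of -0.88, but 3 of 8 and -0.52 after quantile normalization, and -0.51 with a pseudocount of 32; the dim signals of array 277 enter these values. Cox8c had 215 and 193 in Sox17 heterozygous mice, against 451 and 260.4 in WT mice on the same day (change -0.75, adjusted p = 0.418).

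Sox17 heterozygous mice on day 4 and WT mice on day 1 were also compared; this comparison shares arrays with both others and is not independent of them. Cox7a2l and Ndufc2 rose and Ndufa4l2 fell. These were 3 of 73 members (4.11%), against 9.55% of all genes (5.07% higher and 4.48% lower) and 14.1% of the 6065 brightest. The changes were 1.63 ± 0.20 for Cox7a2l (adjusted p = 0.0214), 1.42 ± 0.19 for Ndufc2 (adjusted p = 0.0243) and -3.09 ± 0.36 for the dim Ndufa4l2 (SE; adjusted p = 0.0197), whose change was -1.41 with a pseudocount of 32. No member was called without array 302, 303, 253 or 281, where adjusted p ran from 0.12 to 0.165 for Cox7a2l, from 0.134 to 0.171 for Ndufc2 and from 0.119 to 0.144 for Ndufa4l2. After centring the calls of Cox7a2l (adjusted p = 0.0857) and Ndufc2 (0.0921) were lost and that of Ndufa4l2 was kept (0.0102). With an intensity trend 11 members rose and 1 fell (16.4%). Of all genes 21.3% were called with a trend (11.7% higher and 9.65% lower), and of the 6065 brightest 39.4%. Among the 11 were the core subunits Ndufs1 (0.48, adjusted p = 0.0366 with a trend) and Ndufv2 (0.51, adjusted p = 0.0259 with a trend). Ndufb10 had a change of 1.12 ± 0.21 (SE; adjusted p = 0.0506, and 0.000416 with a trend). The groups did not overlap for 37 members higher and 15 lower, 71.2% of members, against 62.3% of all genes (32.2% higher and 30.1% lower).

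Genes that work beside the respiratory chain were taken from lists of related pathways. Of 15 ATP synthase genes none was called in any comparison with default settings (against 13.3%, 0% and 9.55% of all genes). With an intensity trend Atp5e rose between the days in WT mice (adjusted p = 0.04) and Atp5h in Sox17 heterozygous day 4 minus WT day 1 (adjusted p = 0.0174). Their median WT change was 0.08, against 0.30 over all genes and 0.093 over the 6065 brightest. Among 31 assembly factors that the symbols above do not cover, 4 rose and 1 fell between the days in WT mice, against 13.3% of all genes called (7 and 2 with an intensity trend, against 24.8%), and the median change was 0.30, as over all genes. Sdhaf4, which helps to mature SDHA, had signals of 2486 and 2485 in Sox17 heterozygous day 4 mice, 3261 and 3507 in WT day 4 mice and 927 and 1219 in WT day 1 mice (change 1.67 ± 0.23, adjusted p = 0.0201). Surf1, needed to assemble complex IV, had 1967 and 1952 in Sox17 heterozygous day 4 mice, 3019.7 and 3489 in WT day 4 mice and 1417 and 1624 in WT day 1 mice (change 1.10 ± 0.20, adjusted p = 0.0393). Its heterozygous-minus-WT change on day 4 was -0.73 ± 0.20 (adjusted p = 0.29, and 0.0269 with an intensity trend). It was the only 1 of the 31 called between genotypes with a trend, against 3.52% of all genes, and none was called at default settings. Sco1, a copper carrier for complex IV, fell between the days in WT mice, at 238 and 276 in Sox17 heterozygous day 4 mice, 157 and 151 in WT day 4 mice and 484 and 456 in WT day 1 mice (change -1.61 ± 0.20, adjusted p = 0.0164). Cox20 rose by 1.02 (adjusted p = 0.0418) and the dim Lyrm7 by 1.53 (adjusted p = 0.0449, and 0.318 with an intensity trend). The called complex IV assembly factors thus lay in both directions. After centring only Sco1 kept its call (adjusted p = 0.0479), and without WT day 1 array 302 none of the 5 did (adjusted p from 0.115 for Sco1 to 0.191 for Surf1).

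Of 17 genes of cytochrome c and coenzyme Q, 1 was called between the days in WT mice, against 13.3% of all genes. With an intensity trend 3 rose and 1 fell, against 24.8% of all genes. The median WT change was 0.20. The gene called at default settings was Coq3, a methyltransferase of coenzyme Q synthesis, higher on day 4. Its signals were 619 and 693 in Sox17 heterozygous day 4 mice, 1400.0 and 1461 in WT day 4 mice and 457 and 484 in WT day 1 mice, with no overlap and with WT day 4 highest. The WT change was 1.60 ± 0.19 (adjusted p = 0.0158; 0.0991 after centring, 0.972 in the mean of its probe sets and 0.111 without array 302), and the heterozygous-minus-WT change on day 4 -1.13 ± 0.19 (adjusted p = 0.19, and 0.00781 with an intensity trend). Cycs, cytochrome c itself, had a change of -0.51 in WT mice between the days and 0.42 between genotypes, and Cyc1, the cytochrome of complex III, had -0.0026 and -0.046; none of these was called.

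Of 16 tricarboxylic acid cycle genes, 1 was called between the days in WT mice, against 13.3% of all genes. With an intensity trend 2 rose and 3 fell, against 24.8% of all genes. The median WT change was 0.08. The gene called at default settings was Cs, citrate synthase, higher on day 4. Its signals were 5350.4 and 7036 in Sox17 heterozygous day 4 mice, 9998 and 10527 in WT day 4 mice and 4112 and 4024 in WT day 1 mice (WT change 1.33 ± 0.22, adjusted p = 0.0318); the call was lost after centring (0.182), in the mean of probe sets (0.148) and without any 1 array (0.0641 to 0.159). Between genotypes on day 4, Cs was lower in the heterozygous mice with an intensity trend (-0.74, adjusted p = 0.0352; 0.316 at default settings), and Idh3a, a subunit of isocitrate dehydrogenase, was higher (0.95, adjusted p = 0.00578 with a trend; 0.214 at default settings). Of 14 regulators of mitochondrial biogenesis, 1 was called between the days in WT mice, against 13.3% of all genes. With an intensity trend 1 rose and 2 fell, against 24.8% of all genes. The median WT change was -0.24. The gene called at default settings was Ppargc1b, a coactivator of respiratory chain genes, lower on day 4. It had signals of 203 and 128 in Sox17 heterozygous day 4 mice, 46.6 and 50.9 in WT day 4 mice and 629 and 545 in WT day 1 mice, with no overlap, and a WT change of -3.56 ± 0.30 (adjusted p = 0.00885, but 0.0821 without array 302 and 0.0688 without 303). Its genotype change on day 4 was 1.71 ± 0.30 (adjusted p = 0.193, and 0.0548 with a trend). Ppargc1a had a change of 1.10 between the days (adjusted p = 0.259), and Nrf1, Tfam and Esrra had -0.48, 0.33 and -0.55 (adjusted p from 0.236 for Esrra to 0.481 for Nrf1). Of the mitochondrial genome only ND5, a core subunit of complex I, was measured with a single symbol, with a WT change of -0.60 (adjusted p = 0.123, and 0.0278 with a trend).

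For 41 of the 73 members the array held more than 1 probe set. Of the 75 further probe sets, 45 had the same sign as the brightest one in WT day 4 minus WT day 1, 40 in Sox17 heterozygous minus WT on day 4 and 56 in Sox17 heterozygous day 4 minus WT day 1. Among the 54 with a mean signal of at least 200, the counts were 36, 35 and 44. Small changes of single members therefore often differed in sign between probe sets, while those of Cox7a2l and Ndufc2 between the days did not.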

How the data were processed

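Sample groups were taken from genotype and day in the titles, with 2 arrays per group. Per the labels' protocols, 100 ng of Trizol-extracted RNA was amplified, labelled with biotin and hybridised. The authors deposited 1 intensity per probe set, on a linear scale. RMA, Transcriptome Analysis Console and Affymetrix Expression Console are named in the submitters' processing notes, with no version. RMA gives log2 values, whereas these are linear with a trimmed mean of 500, the usual form of MAS output, so the method that made them, and its treatment of dim signals, was not settled. Detection calls were not used.

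Of 45101 probe sets, 34945 had 1 gene symbol in the platform annotation, 932 several and 9160 none, and 64 were controls; 10 probe sets naming a member beside another gene were left out. All 73 members matched RefSeq gene IDs, with 0 symbols changed. Each gene was represented by the probe set of highest mean log2(signal + 1); nothing was filtered or renormalized. All 6 arrays entered 1 fit in limma 3.58.1 (R 4.3.3) with 3 residual degrees of freedom, and p-values were Benjamini-Hochberg adjusted over 18193 genes. No exact permutation test was run, since its smallest possible p is 0.333 with 2 arrays in each group. The fit was tested on simulated data.

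The members and lists were chosen with earlier results of these data known, so no test over a list was made. Genes were named by rule: members called in any comparison (at most 6 per complex and comparison); per complex, the 3 largest changes without overlap between arrays and with a mean signal of at least 200; all of complex II; core subunits; isoform pairs; and per pathway list the 3 smallest p-values with Cycs, Cyc1, Ppargc1a, Nrf1, Tfam and Esrra. Members called only with an intensity trend, Ndufaf6, Ndufb4 and the assembly factors Cox20 and Lyrm7 were named after their values were seen, and not every gene the rule allows is printed. Alternatives were quantile normalization, median centring, an intensity trend, leaving out the dimmest genes, a pseudocount of 32, the mean of probe sets, 4 arrays and leaving out each array; the trend fit with centring or without an array was added after seeing the data.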

Additional observations from a re-analysis of the deposited data

How the results depend on the processing

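Counts of called members depended on the settings, and the cause was not tested. In WT day 4 minus WT day 1 the 4 calls became 14 with an intensity trend, 12 without the dimmest genes, 7 with a pseudocount of 32, 2 after centring and 1 with 4 arrays. In Sox17 heterozygous minus WT on day 4 the 0 calls became 1 with a trend. In Sox17 heterozygous day 4 minus WT day 1 the 3 calls became 12 with a trend, 5 without the dimmest genes, 5 with a pseudocount of 32 and 1 after centring. With both trend and centring, the 14, 1 and 12 calls became 1, 0 and 2. Leaving out each array gave 0 to 3, 0 to 0 and 0 to 4 calls at default settings (0 without WT day 1 array 302 or 303 in each comparison) and 7 to 19, 0 to 6 and 3 to 21 with a trend. Centring moved the members' median to -0.044 in WT day 4 minus WT day 1 and to 0.21 between genotypes on day 4. Over all genes the median log2 level was higher on array 277 than on array 284 (7.89 against 7.24), but over the members it was not (11.78 against 11.89). The cause of these moves was not tested. Medians without each array ran from 0.12 to 0.22, from -0.00097 to 0.06 and from 0.12 to 0.19. Within a comparison, no member was called higher under some settings and lower under others. The members' median in WT day 4 minus WT day 1 did change sign, from 0.15 to -0.044 after centring. No paired analysis was possible because the groups share no replicate numbers. The size of change in dim members cannot be judged, since their signal over background is unknown here.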

Other observations

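The array also held 10 probe sets that matched a member together with another gene and entered no comparison. The one for Ndufs5 and its pseudogene had signals of 3436 and 3408 in Sox17 heterozygous day 4 mice, 3225 and 3749 in WT day 4 mice and 2165 and 2127 in WT day 1 mice, so all day 4 arrays lay above both day 1 arrays. The brighter one for Ndufb4 and its copies had 3920 and 3852 in Sox17 heterozygous day 4 mice, 3930 and 3822 in WT day 4 mice and 2586 and 2945 in WT day 1 mice. This differs from the dim single-symbol Ndufb4 probe set, whose signals stayed under 100 on every array. The one for Ndufs6 and Ndufs6b had 3837 and 3743 in Sox17 heterozygous day 4 mice, 2373 and 3225 in WT day 4 mice and 2870 and 2714 in WT day 1 mice, with the heterozygous arrays above the other 4. The second one for Ndufb4 had 2501 and 2650 in Sox17 heterozygous day 4 mice, 1970 and 2671 in WT day 4 mice and 1763 and 2033 in WT day 1 mice, so the WT groups overlapped. The brighter one for Ndufa11 had 4677 and 3850 in Sox17 heterozygous day 4 mice, 3581 and 3359 in WT day 4 mice and 3760 and 4264 in WT day 1 mice, with the WT day 4 arrays lowest. The one for Ndufab1 had 3468 and 3815 in Sox17 heterozygous day 4 mice, 2600 and 3122 in WT day 4 mice and 2753 and 2866 in WT day 1 mice, with the heterozygous arrays above the other 4. The remaining 4, for Ndufa11, Ndufa13 and Ndufb2, had signals between 6.62 and 358. None of these was tested, since signals of the paired genes cannot be told apart.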
